A study of Mus musculus with 24 samples.

Results

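*Ids*, the gene of the lysosomal enzyme iduronate-2-sulfatase, was examined in the hippocampus of mice with and without *Egr1*, together with 9 other lysosomal genes, *Idua*, *Hexa*, *Ctsd*, *Ctsb*, *Gaa*, *Neu1*, *Lamp1*, *Tfeb* and *Galns*. All 10 were found by symbol among the 36605 genes of the count table, and all 10 passed the filter on low counts in each of the 8 comparisons. *Ids* was chosen by its higher level in Egr1cKO mice, so each of its values that sets Egr1cKO against other mice was selected on and is given as a description without a test. The 9 others were named for their place in the lysosome. The question asked was whether the higher level of *Ids* went with a change across the lysosome.

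RNA of the adult hippocampus was counted in 24 mice, 3 females and 3 males of each of 4 genotypes, with exact ages not given in the sources used here. Egr1 wtNes Cre- mice carried neither modification. Egr1 fNes Cre- mice carried *Egr1* alleles flanked by loxP sites, from a strain made on C57BL/6N. Egr1 wtNes Cre+ mice carried Cre recombinase driven by the Nestin promoter, from a B6.Cg line, and Egr1 fNes Cre+ mice (Egr1cKO) carried both. The Nestin promoter is active in neural precursors, from which neurons, astrocytes and oligodendrocytes arise. The mouse numbers in the labels fall in 2 ranges, 1 for floxed and 1 for wild-type alleles, so the alleles and these ranges cannot be told apart. The comparison of Egr1cKO with Egr1 fNes Cre- lies within 1 range. In that range no Egr1 fNes Cre- number falls between those of Egr1cKO, so genotype and mouse number are not mixed there either. Totals ran from 18025168 to 34955004 counts per mouse, with a median of 22743950.5. Levels are CPM, counts scaled by library totals with TMM factors.

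Some libraries stood apart from the other mice of their sex and genotype. By the chi-square of counts per degree of freedom, male Egr1cKO replicate 3 was at 40.5 and 42.0 from its group mates, which were at 12.2 from each other. Male Egr1 wtNes Cre+ replicate 2 was at 37.5 and 35.1, beside 13.3 for the other pair. Female Egr1 wtNes Cre+ replicate 1 was at 25.2 and 28.6, beside 8.30. Male Egr1 fNes Cre- replicate 1, the deepest library, was at 22.4 and 35.4, beside 9.69, and female Egr1 fNes Cre- replicate 1 at 24.5 and 18.5, beside 6.52. The closest pair of all was at 5.04, above the 1 of sampling noise, and all 24 libraries were kept. The labels give the cell type as endocrine and the tissue as hippocampus. Of 7 markers of pituitary endocrine cells, 6 had a row, and their summed level was at most 3.84 CPM in any mouse, with *Tshb* the most abundant and *Cga* and *Fshb* each at 0 in all mice but a single one. The 5 markers of hippocampal excitatory neurons summed to 1470.4 to 2075 CPM, so the endocrine label is not borne out by its markers.

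*Egr1*, an immediate early gene that encodes a zinc finger transcription factor, served to check the genotype labels. Its levels in Egr1cKO mice were 10.2, 9.49 and 8.52 CPM in females and 6.82, 7.83 and 4.86 CPM in males. The lowest, median and highest of the 18 other mice were 47.7, 96.8 and 149 CPM, with no overlap. Against these 18 mice the *Egr1* transcript fell in Egr1cKO hippocampus (log2FC -3.59, SE 0.23, adjusted *p* 1.19e-11 by edgeR), lower in 6 of 6 mice. Counts per gene do not show which part of the transcript remained.

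Lysosomes are acidic compartments in which hydrolases break down material from outside and inside the cell. Glycosaminoglycan chains are removed from their ends by enzymes that work in sequence. Iduronate-2-sulfatase takes a sulfate from iduronic acid in heparan sulfate and dermatan sulfate, and its loss causes mucopolysaccharidosis type II (Hunter syndrome), in which the brain can be affected. Many lysosomal genes share control by the transcription factor TFEB, which is held in the cytosol when mTORC1 is active. In whole tissue, a gene's level depends on which cells are present and on the RNA in each, and these cannot be told apart here.

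*Ids* (ENSMUSG00000035847, chrX:70343069-70365084 on the minus strand of GRCm38) was measured in Egr1cKO females at 577, 657 and 609.5 CPM and in Egr1cKO males at 542, 523 and 616 CPM. In Egr1 fNes Cre- mice it was at 549, 458 and 437 CPM in females and 531, 448 and 438 CPM in males. Egr1 wtNes Cre+ females had 499, 504 and 439 CPM and males 437, 503 and 457 CPM. Egr1 wtNes Cre- females had 520.0, 529 and 567 CPM and males 459, 458 and 534 CPM. The 4 highest of the 24 values were all of Egr1cKO mice, and the other 2 Egr1cKO mice, both male, lay at ranks 7 and 11, inside the range of the 18 other mice. The Egr1cKO mice lay above all 6 Egr1 wtNes Cre+ mice but overlapped the range of Egr1 wtNes Cre- and also that of Egr1 fNes Cre-. Male Egr1cKO replicate 3, the library that stood apart, had the second highest value of all.

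By mean and SD (n = 6), *Ids* was at 587 ± 49.7 CPM in Egr1cKO, 511 ± 43.9 CPM in Egr1 wtNes Cre-, 477 ± 49.8 CPM in Egr1 fNes Cre- and 473 ± 32.4 CPM in Egr1 wtNes Cre+ mice. In this order only the first gap, between Egr1cKO and Egr1 wtNes Cre-, was larger than the SD of either group, and the other 3 genotypes did not differ beyond their spread. The log2FC of *Ids* in Egr1cKO was 0.28 against the 18 other mice, 0.30 against Egr1 fNes Cre- and 0.31 against Egr1 wtNes Cre+, and 0.41 for the interaction term of the floxed allele with Cre. These 4 values share the same Egr1cKO mice and chose the gene, so nothing is drawn from them. Without male Egr1cKO replicate 3 the first 3 were 0.26, 0.29 and 0.30, and without male Egr1 wtNes Cre+ replicate 2 the last of these 3 was 0.33. In females the mean of Egr1cKO was 1.28 times that of Egr1 fNes Cre-, 1.28 times that of Egr1 wtNes Cre+ and 1.14 times that of Egr1 wtNes Cre-. In males these ratios were 1.19, 1.2035 and 1.16.

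The floxed allele and the transgene on their own could be tested for *Ids*. Egr1 fNes Cre- against Egr1 wtNes Cre- gave -0.10 (SE 0.072, unadjusted *p* 0.186, adjusted *p* 0.606) by edgeR, and Egr1 wtNes Cre+ against Egr1 wtNes Cre- gave -0.11 (SE 0.069, unadjusted *p* 0.142, adjusted *p* 0.738). Neither passed the threshold, which was a 1.2-fold change with *p* adjusted to 0.05 or less, and both pairs of groups overlapped. The same mice enter the interaction that is among the values *Ids* was selected on, so the negative sign of these log2FC is not independent of that choice. *Ids* lies on the X chromosome. Females had 529 ± 67.5 CPM and males 495 ± 55.1 CPM (n = 12 each), with a log2FC of 0.093 (SE 0.066, unadjusted *p* 0.171, adjusted *p* 0.960) that missed the threshold. The sex difference in Egr1cKO, compared with its mean in the other 3 genotypes, was 0.056 by log2FC, from 0.0074 to 0.14 over the alternatives, and is given without a test.

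**Figure D1:**
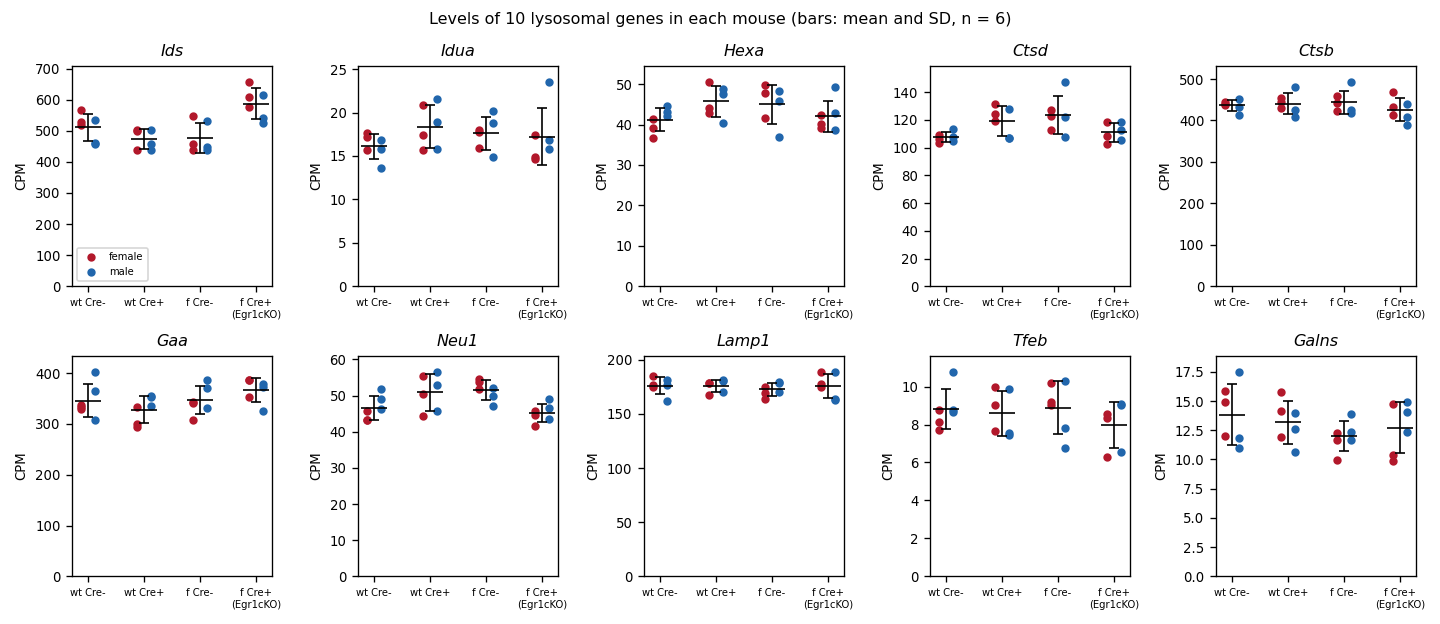
Levels in CPM (vertical axis) of the 10 lysosomal genes in each mouse, by genotype (horizontal axis; wt and f are wild-type and floxed *Egr1*, Cre- and Cre+ without and with Nestin-Cre). Points are single mice, red for females and blue for males, and bars give the mean and SD of 6 mice. *Ids* ran from 523 to 657 CPM in Egr1cKO, and its lower values lay inside the range of the other mice. Its Egr1cKO values were apart only from those of Cre+ mice with wild-type *Egr1*. Groups of the other 9 genes overlapped in each comparison drawn with Egr1cKO.

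Of the members that act on glycosaminoglycans, *Idua* encodes alpha-L-iduronidase, which acts on iduronic acid after iduronate-2-sulfatase has removed the sulfate. Across mice the lowest, median and highest *Idua* levels were 14.7, 16.3 and 23.5 CPM in Egr1cKO, 14.9, 17.9 and 20.2 CPM in Egr1 fNes Cre-, 15.7, 18.2 and 21.5 CPM in Egr1 wtNes Cre+, and 13.6, 16.3 and 17.6 CPM in Egr1 wtNes Cre- mice. The groups overlapped throughout, and the highest single value belonged to a male Egr1cKO mouse. *Idua* in Egr1cKO gave log2FC -0.0067, SE 0.091, adjusted *p* 0.980 against the 18 other mice. Part of its exons, 124 and 141 bases, is shared with *Dgkq* and *Slc26a1* on the other strand, and reads there cannot be assigned. *Galns* encodes galactosamine-6-sulfatase, a sulfatase of keratan and chondroitin sulfate. For *Galns* the lowest, median and highest levels were 9.91, 13.2 and 14.9 CPM in Egr1cKO, 9.97, 12.0 and 13.9 CPM in Egr1 fNes Cre-, 10.6, 13.3 and 15.8 CPM in Egr1 wtNes Cre+, and 11.0, 13.4 and 17.5 CPM in Egr1 wtNes Cre- mice. Its genotypes overlapped, and Egr1cKO against the 18 other mice gave log2FC -0.023, SE 0.10, adjusted *p* 0.933. *Hexa* encodes the alpha subunit of beta-hexosaminidase, which degrades GM2 ganglioside. *Hexa* was at 38.7, 41.2 and 49.2 CPM in Egr1cKO, 37.0, 46.8 and 49.8 CPM in Egr1 fNes Cre-, 40.5, 45.9 and 50.5 CPM in Egr1 wtNes Cre+, and 36.8, 41.7 and 44.5 CPM in Egr1 wtNes Cre- mice (lowest, median and highest). Its groups overlapped too, with log2FC -0.057, SE 0.065, adjusted *p* 0.699 in Egr1cKO.

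*Neu1* encodes sialidase, which removes sialic acid from glycans. Levels of *Neu1*, as lowest, median and highest, were 41.7, 45.2 and 49.0 CPM in Egr1cKO, 47.0, 52.0 and 54.7 CPM in Egr1 fNes Cre-, 44.3, 51.6 and 56.5 CPM in Egr1 wtNes Cre+, and 43.3, 46.0 and 51.9 CPM in Egr1 wtNes Cre- mice. *Neu1* was lowest in Egr1cKO by mean and overlapped with each other genotype. Its log2FC in Egr1cKO was -0.13 (SE 0.057, unadjusted *p* 0.0314, adjusted *p* 0.292) against the 18 other mice, -0.19 (SE 0.061, unadjusted *p* 0.00657, adjusted *p* 0.250) against Egr1 fNes Cre- and -0.17 (SE 0.074, unadjusted *p* 0.0342, adjusted *p* 0.384) against Egr1 wtNes Cre+, none of which passed. *Gaa* encodes acid alpha-glucosidase, which degrades glycogen. *Gaa* values had a lowest, median and highest of 326, 375 and 386 CPM in Egr1cKO, 309, 342 and 387 CPM in Egr1 fNes Cre-, 294, 334 and 356 CPM in Egr1 wtNes Cre+, and 309, 335 and 402 CPM in Egr1 wtNes Cre- mice. *Gaa* had its highest mean in Egr1cKO, with overlap between all genotypes. Its log2FC was 0.11 (SE 0.056, unadjusted *p* 0.0494, adjusted *p* 0.330) against the 18 other mice and 0.16 (SE 0.069, unadjusted *p* 0.0339, adjusted *p* 0.384) against Egr1 wtNes Cre+, neither past the threshold.

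*Ctsd* and *Ctsb* encode cathepsins D and B, an aspartic and a cysteine protease. Across mice the lowest, median and highest *Ctsd* levels were 102, 111 and 119 CPM in Egr1cKO, 108, 122 and 147 CPM in Egr1 fNes Cre-, 107, 122 and 131 CPM in Egr1 wtNes Cre+, and 103, 107 and 113 CPM in Egr1 wtNes Cre- mice. Egr1 wtNes Cre- mice formed the tightest group of *Ctsd* values, at its lower end, and Egr1cKO overlapped with all others. *Ctsd* gave -0.15 (SE 0.072, unadjusted *p* 0.0515, adjusted *p* 0.311) in Egr1cKO against Egr1 fNes Cre-, and 0.20 (SE 0.065, unadjusted *p* 0.00632, adjusted *p* 0.483) in Egr1 fNes Cre- against Egr1 wtNes Cre-. Neither passed after adjustment. For *Ctsb* the lowest, median and highest levels were 389, 423 and 469 CPM in Egr1cKO, 418, 435 and 493 CPM in Egr1 fNes Cre-, 407, 437 and 482 CPM in Egr1 wtNes Cre+, and 413, 439 and 451 CPM in Egr1 wtNes Cre- mice. The *Ctsb* groups lay on top of each other, and Egr1cKO against the 18 other mice gave log2FC -0.042, SE 0.043, adjusted *p* 0.659. *Ctsb* shares 774 exonic bases with *Fdft1* on the other strand, *Ctsd* 808 with a gene model not in the table, *Hexa* 255 with *Tmem202* and *Lamp1* 249 with *Grtp1*.

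*Lamp1* encodes an abundant glycoprotein of the lysosomal membrane. *Lamp1* was at 163, 176 and 188 CPM in Egr1cKO, 164, 172 and 179.6 CPM in Egr1 fNes Cre-, 168, 178 and 181 CPM in Egr1 wtNes Cre+, and 162, 177 and 185 CPM in Egr1 wtNes Cre- mice (lowest, median and highest). Its groups overlapped, with log2FC 0.013, SE 0.039, adjusted *p* 0.896 in Egr1cKO against the 18 other mice. *Tfeb* encodes the transcription factor named above, whose activity is set largely by its place in the cell and not by its transcript. Levels of *Tfeb*, as lowest, median and highest, were 6.31, 8.46 and 9.07 CPM in Egr1cKO, 6.74, 9.13 and 10.3 CPM in Egr1 fNes Cre-, 7.47, 8.32 and 9.98 CPM in Egr1 wtNes Cre+, and 7.73, 8.72 and 10.8 CPM in Egr1 wtNes Cre- mice. *Tfeb* had its lowest mean in Egr1cKO, within the range of the others, with log2FC -0.13, SE 0.10, adjusted *p* 0.548. For none of the 9 genes was any gap between neighbouring genotypes, ordered by mean level, larger than the SD of both groups. Taking exon length into account, over all 24 mice *Ids* was at 100.4 CPM per kilobase, above *Gaa* at 72.5, *Ctsb* at 72.2, *Lamp1* at 65.5 and *Ctsd* at 49.0 CPM per kilobase. *Idua*, which follows it in the pathway, was at 4.12 and *Tfeb* at 1.51 CPM per kilobase.

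In Egr1cKO against the 18 other mice, edgeR called 0 of the 9 members beside *Ids*, and 1 of 18433 genes in all (0.00543%). Before adjustment, the 9 included 1 higher and 1 lower by edgeR at an unadjusted *p* under 0.05, beside 15.1% of all genes, and DESeq2 called 0 of the 9 beside 0.195% of the genes it adjusted. The called gene was *Egr1*. Against Egr1 fNes Cre-, edgeR called 0 of the 9 members beside *Ids*, and 3 of 17265 genes in all (0.0174%). Without adjustment, the 9 included 0 higher and 1 lower by edgeR at an unadjusted *p* under 0.05, beside 16.2% of all genes, and DESeq2 called 0 of the 9 (with no adjusted *p* for *Tfeb* and *Galns*) beside 0.627% of the genes it adjusted. Against Egr1 wtNes Cre+, edgeR called 0 of the 9 members beside *Ids*, and 1 of 17080 genes in all (0.00585%). There the 9 included 1 higher and 1 lower by edgeR at an unadjusted *p* under 0.05, beside 12.3% of all genes, and DESeq2 called 0 of the 9 beside 0.111% of the genes it adjusted. These comparisons share the Egr1cKO mice. For Egr1 fNes Cre- against Egr1 wtNes Cre-, edgeR called 0 of the 9 members beside *Ids*, and 0 of 17393 genes in all (0%). Before adjustment the 9 included 2 higher and 0 lower by edgeR at an unadjusted *p* under 0.05, beside 10.2% of all genes, and DESeq2 called 0 of the 9 beside 0.00291% of the genes it adjusted. The higher members were *Ctsd* and *Neu1*. For Egr1 wtNes Cre+ against Egr1 wtNes Cre-, edgeR called 0 of the 9 members beside *Ids*, and 0 of 17167 genes in all (0%). Here the 9 included 2 higher and 0 lower by edgeR at an unadjusted *p* under 0.05, beside 6.38% of all genes, and DESeq2 called 0 of the 9 beside 0.0653% of the genes it adjusted. Here they were *Ctsd* and *Hexa*. With single mice left out, the members at that unadjusted level, higher and lower together, ran from 0 (without female Egr1cKO replicate 2 or 3 or male Egr1cKO replicate 1) to 2 against the 18 other mice. Against Egr1 fNes Cre- they ran from 1 to 2 (without female Egr1cKO or Egr1 fNes Cre- replicate 1, male Egr1 fNes Cre- replicate 1 or male Egr1cKO replicate 3). Against Egr1 wtNes Cre+ they ran from 0 (without female Egr1cKO replicate 1 or 2, male Egr1cKO replicate 1 or female Egr1 wtNes Cre+ replicate 2) to 3 (without male Egr1cKO replicate 3). In Egr1 fNes Cre- against Egr1 wtNes Cre- they ran from 1 (without female Egr1 fNes Cre- replicate 2 or 3 or any female Egr1 wtNes Cre- mouse) to 3 (without male Egr1 fNes Cre- replicate 1 or male Egr1 wtNes Cre- replicate 3). In Egr1 wtNes Cre+ against Egr1 wtNes Cre- they ran from 0 (without replicate 3 of either sex in either genotype) to 4 (without male Egr1 wtNes Cre+ replicate 2), and that last removal took all genes at this level from 1095 to 2831.

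In the interaction of the floxed allele with Cre, edgeR called 0 of the 9 members beside *Ids*, and 1 of 19742 genes in all (0.00507%). In that term the 9 included 0 higher and 3 lower by edgeR at an unadjusted *p* under 0.05, beside 18.4% of all genes, and DESeq2 called 0 of the 9 beside 0.326% of the genes it adjusted. They were *Neu1*, at -0.32 (SE 0.094, unadjusted *p* 0.00216, adjusted *p* 0.159), *Ctsd*, at -0.30 (SE 0.10, unadjusted *p* 0.00445, adjusted *p* 0.159), and *Hexa*, at -0.25 (SE 0.11, unadjusted *p* 0.0301, adjusted *p* 0.224). Of the 9, 33.3% were above 0 in this term, beside 46.1% of all genes: *Gaa* at 0.16, *Galns* at 0.16 and *Lamp1* at 0.026. These signs are not set against that of *Ids*, whose value here was selected on. The interaction subtracts the change from Cre in wild-type mice from that in floxed mice, so higher values in Egr1 fNes Cre- or Egr1 wtNes Cre+ than in Egr1 wtNes Cre- enter it with a negative sign. Between females and males, edgeR called 0 of the 9 members beside *Ids*, and 12 of 17124 genes in all (0.0701%). Unadjusted, the 9 included 0 higher and 0 lower by edgeR at an unadjusted *p* under 0.05, beside 5.66% of all genes, and DESeq2 called 0 of the 9 beside 0.0888% of the genes it adjusted. For the sex difference of Egr1cKO set against that of the other genotypes, edgeR called 0 of the 9 members beside *Ids*, and 1 of 19742 genes in all (0.00507%). Unadjusted, the 9 included 0 higher and 0 lower by edgeR at an unadjusted *p* under 0.05, beside 6.09% of all genes, and DESeq2 called 0 of the 9 beside 0.0312% of the genes it adjusted. With each of the 6 Egr1cKO mice left out in turn (the 18 others were not), the members at the unadjusted level numbered 2 to 4 in the interaction and 0 to 1 in this last comparison (1 without female Egr1cKO replicate 1 or 3).

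A wider list of 117 lysosomal genes, *Ids* among them, was read in the same way, leaving 116 without it. In Egr1cKO against the 18 other mice, 5 of 116 tested were higher and 9 lower by edgeR at an unadjusted *p* under 0.05, and edgeR and DESeq2 called 0. That was 12.1% of the list, beside 15.1% of all genes. The median log2FC was -0.012, beside -0.0076 over all genes tested, and 39.7% of the list was above 0, beside 48.2% of all genes. Against Egr1 fNes Cre-, 2 of 115 tested were higher and 13 lower by edgeR at an unadjusted *p* under 0.05, and edgeR and DESeq2, which gave no adjusted *p* for 28 of them, called 0. At that level were 16.2% of all genes and 13.0% of the list. Its median log2FC was -0.020, beside -0.0059 over all genes tested, and 40.0% of the list was above 0, beside 48.9% of all genes. Against Egr1 wtNes Cre+, 6 of 115 tested were higher and 6 lower by edgeR at an unadjusted *p* under 0.05, and edgeR and DESeq2 called 0. That was 10.4% of the list, beside 12.3% of all genes. The list had a median log2FC of -0.030, beside -0.015 over all genes tested, and 33.9% of the list was above 0, beside 46.8% of all genes. The summed level of the 116 genes was 11565 ± 295 CPM in Egr1cKO (SD, n = 6) and 11515 ± 265 CPM in the 18 other mice (SD, n = 18), a difference smaller than either SD. These unadjusted counts moved in both directions when single mice were left out. Against the 18 other mice the 14 genes of the list became 25 without male Egr1cKO replicate 3 and 22 without male Egr1 wtNes Cre+ replicate 2, but 5 without female Egr1cKO replicate 3 and 6 without female Egr1cKO replicate 2 or male Egr1cKO replicate 1. Against Egr1 fNes Cre- the 15 became 30 without male Egr1cKO replicate 3 and 23 without male Egr1 fNes Cre- replicate 1, but 7 without female Egr1cKO replicate 3 or male Egr1cKO replicate 1 and 8 without male Egr1 fNes Cre- replicate 3. Against Egr1 wtNes Cre+ the 12 became 25 without male Egr1 wtNes Cre+ replicate 2 and 24 without male Egr1cKO replicate 3. They became 5 without female or male Egr1cKO replicate 1 or male Egr1 wtNes Cre+ replicate 3, 6 without female Egr1cKO replicate 2 or 3 or male Egr1 wtNes Cre+ replicate 1, and 7 without female Egr1 wtNes Cre+ replicate 3. Over all genes the 2786, 2794 and 2099 at that level ran from 1904 to 4034, 1775 to 4202 and 1412 to 3474, highest each time without male Egr1cKO replicate 3.

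**Figure D2:**
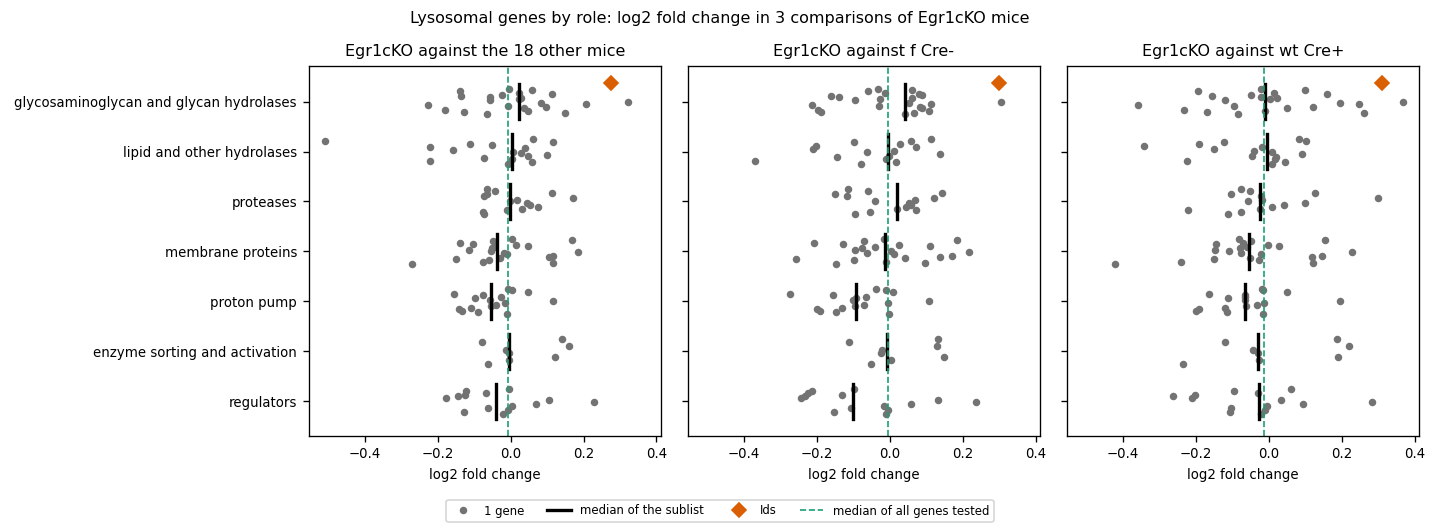
Log2 fold change (horizontal axis) of each lysosomal gene by role (vertical axis) in 3 comparisons of Egr1cKO mice, which share the Egr1cKO mice. Grey points are genes, black bars medians of each role without *Ids*, the orange diamond *Ids*, and the dashed line the median of all genes tested. Medians of the roles lie near 0 and *Ids* lies to the right, at 0.28, 0.30 and 0.31.

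By role, within the floxed mice (Egr1cKO against Egr1 fNes Cre-) and at an unadjusted *p* under 0.05, a level 16.2% of all genes reached, the hydrolases of glycosaminoglycans and glycans had 1 higher and 1 lower of 23 (median log2FC 0.042). The gene of lowest *p* there was *Neu1*, given above. The hydrolases of lipids and other substrates had 0 higher and 2 lower of 16 (median log2FC -0.0055). The proteases had 0 higher and 0 lower of 15 (median log2FC 0.020), with *Ctsd* of lowest *p*. The membrane proteins had 0 higher and 1 lower of 22 (median log2FC -0.014), the latter being *Spns1*, a transporter of lysophospholipids, at -0.26 (SE 0.075, unadjusted *p* 0.00310, adjusted *p* 0.250). The subunits of the proton pump, which acidifies the lysosome and also synaptic vesicles, had 0 higher and 6 lower of 17 (median log2FC -0.093), led by *Atp6v0b* at -0.27 (SE 0.11, unadjusted *p* 0.0209, adjusted *p* 0.261). At the same level these 17 had 0 higher and 0 lower against the 18 other mice, 1 higher and 0 lower against Egr1 wtNes Cre+, 4 higher and 0 lower in Egr1 fNes Cre- against Egr1 wtNes Cre-, 0 higher and 0 lower in Egr1 wtNes Cre+ against Egr1 wtNes Cre- and 1 higher and 5 lower in the interaction. In the same order, 15.1%, 12.3%, 10.2%, 6.38% and 18.4% of all genes were at this level. Genes of enzyme sorting and activation had 0 higher and 0 lower of 8 (median log2FC -0.0089), with *Gnptab*, which starts the mannose 6-phosphate tag, of lowest *p* at 0.13 (SE 0.073, unadjusted *p* 0.0875, adjusted *p* 0.370). The regulators had 1 higher and 3 lower of 14 (median log2FC -0.10). *Lamtor1*, part of the scaffold that brings mTORC1 to the lysosome, was lowest in *p* at -0.21 (SE 0.069, unadjusted *p* 0.00697, adjusted *p* 0.250), while *Mtor* had the opposite sign at 0.24 (SE 0.088, unadjusted *p* 0.0160, adjusted *p* 0.254).

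Against all 18 other mice, the genes of lowest *p* by role included *Mtor*, the kinase of mTORC1, at 0.23 (SE 0.073, unadjusted *p* 0.00372, adjusted *p* 0.204). Next came *Tpcn1*, a cation channel of the endolysosome, at 0.12 (SE 0.048, unadjusted *p* 0.0216, adjusted *p* 0.262), and *Gnptab* at 0.14 (SE 0.057, unadjusted *p* 0.0213, adjusted *p* 0.261). Among subunits of the pump *Atp6v1e1* stood first, at -0.11 (SE 0.054, unadjusted *p* 0.0545, adjusted *p* 0.339), and among proteases *Tpp1*, which encodes tripeptidyl peptidase 1, at -0.074 (SE 0.045, unadjusted *p* 0.114, adjusted *p* 0.439). None passed the threshold, and both signs occurred. Against Egr1 wtNes Cre+ they were *Hyal2* (log2FC -0.36), *Dnase2a* (-0.34), *Ctsh* (0.30), *Spns1* (-0.15), *Atp6v1a* (0.19), *Gnptab* (0.19) and *Mtor* (0.28), with the lowest adjusted *p* at 0.351. *Mtor* was called in that comparison only when male Egr1 wtNes Cre+ replicate 2 was left out, with a log2FC of 0.37.

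Some other enzymes of heparan and dermatan sulfate breakdown, which act beside iduronate-2-sulfatase, were picked from the list after its values were seen. Besides *Idua* they were *Sgsh* and *Naglu*, *Hgsnat*, *Gusb* and *Arsg*. Against the 18 other mice their log2FC in Egr1cKO ran from -0.14 for *Arsg* to 0.15 for *Sgsh*. Within the floxed mice they ran from -0.059 to 0.11. In both comparisons edgeR and DESeq2 called 0 of these 6, and 0 were at an unadjusted *p* under 0.05 by edgeR. Elsewhere *Hgsnat* alone of the 6 was at that level, with -0.20 (SE 0.076, unadjusted *p* 0.0179, adjusted *p* 0.729) in Egr1 wtNes Cre+ against Egr1 wtNes Cre-, 0.25 (SE 0.12, unadjusted *p* 0.0370, adjusted *p* 0.241) in the interaction and 0.27 (SE 0.13, unadjusted *p* 0.0488, adjusted *p* 0.816) for the sex difference of Egr1cKO set against the others, none of which passed. DESeq2 gave *Sgsh*, *Naglu* and *Gusb* no adjusted *p* within the floxed mice. *Sumf1* and *Sumf2*, of the factor that activates sulfatases and its paralogue, were not called either, with log2FC of 0.0026 and -0.051 within the floxed mice.

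The wider list was also read among the mice with *Egr1*, to see what the floxed allele and the transgene brought on their own. In Egr1 fNes Cre- against Egr1 wtNes Cre-, 13 of 116 tested were higher and 4 lower by edgeR at an unadjusted *p* under 0.05, and edgeR and DESeq2 called 0. At that level were 10.2% of all genes (1011 higher and 770 lower) and 14.7% of the list. The median log2FC was 0.032, beside 0.0039 over all genes tested, and 60.3% of the list was above 0, beside 50.9% of all genes. The genes of lowest *p* by role, with log2FC, were *Siae* (-0.20), *Ppt2* (0.29), *Ctsd* (0.20), *Spns1* (0.21), *Atp6v0b* (0.24), *Sort1* (-0.13), *Lamtor2* (0.27). In Egr1 wtNes Cre+ against Egr1 wtNes Cre-, 7 of 115 tested were higher and 1 lower by edgeR at an unadjusted *p* under 0.05, and edgeR and DESeq2 called 0. Of all genes 6.38% were at that level, and 6.96% of the list. Its median log2FC was 0.028, beside 0.014 over all genes tested, and 61.7% of the list was above 0, beside 53.9% of all genes. By role these were *Hgsnat* (-0.20), *Pla2g15* (0.23), *Ctsd* (0.16), *Tmem192* (0.26), *Atp6v1a* (-0.16), *Sumf2* (0.33), *Lamtor4* (0.33). In the interaction of the floxed allele with Cre, 7 of 116 tested were higher and 23 lower by edgeR at an unadjusted *p* under 0.05, and edgeR and DESeq2, which gave no adjusted *p* for 8 of them, called 0. At that level were 18.4% of all genes (1801 higher and 1836 lower) and 25.9% of the list. The median log2FC was -0.071, beside -0.033 over all genes tested, and 35.3% of the list was above 0, beside 46.1% of all genes. Lowest in *p* by role were *Neu1* (-0.32), *Ppt2* (-0.52), *Ctsd* (-0.30), *Spns1* (-0.36), *Atp6v1g1* (-0.38), *Gnptab* (0.23), *Lamtor4* (-0.56), with adjusted *p* from 0.159 to 0.213. The Egr1 wtNes Cre- mice are shared by these comparisons, so the 3 sets of values are not independent. These counts, too, moved with single mice left out. In Egr1 fNes Cre- against Egr1 wtNes Cre- the 17 became 27 without male Egr1 fNes Cre- replicate 1, but 8 without female Egr1 fNes Cre- replicate 2, 9 without female Egr1 fNes Cre- or Egr1 wtNes Cre- replicate 3 and 11 without male Egr1 fNes Cre- replicate 3. In Egr1 wtNes Cre+ against Egr1 wtNes Cre- the 8 became 23 without male Egr1 wtNes Cre+ replicate 2, but 4 without male Egr1 wtNes Cre+ replicate 3 and 5 without female Egr1 wtNes Cre- replicate 2 or 3 or male Egr1 wtNes Cre- replicate 3. For the interaction, where only Egr1cKO mice were left out, the 30 became 16 without male Egr1cKO replicate 1 and 35 without male Egr1cKO replicate 3. With no filter on low counts edgeR called 5 genes of the list in the interaction, *Lamtor4*, *Atp6v0b*, *Mtor* and *Atp6v1g1* among them, of 1173 genes in all.

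The list was also compared by sex. In females against males, 3 of 115 tested were higher and 0 lower by edgeR at an unadjusted *p* under 0.05, and edgeR and DESeq2 called 0. That was 2.61% of the list, beside 5.66% of all genes. The list had a median log2FC of -0.017, beside -0.0014 over all genes tested, and 40.9% of the list was above 0, beside 49.4% of all genes. The genes of lowest *p* by role were *Hyal1* (0.41), *Dnase2a* (-0.16), *Scpep1* (-0.17), *Laptm4b* (0.13), *Atp6v1g2* (-0.080), *Gnptab* (0.073), *Mitf* (0.16). For the sex difference of Egr1cKO set against the others, 1 of 116 tested were higher and 1 lower by edgeR at an unadjusted *p* under 0.05, and edgeR and DESeq2, which gave no adjusted *p* for 1 of them, called 0. That was 1.72% of the list, beside 6.09% of all genes. The list had a median log2FC of -0.0037, beside -0.0057 over all genes tested, and 48.3% of the list was above 0, beside 49.0% of all genes. Those of lowest *p* by role included *Ppt2* (-0.38), *Tpp1* (-0.14), *Laptm4a* (0.17), *Atp6v1a* (0.20), *Sort1* (0.25), *Mtor* (0.26), with adjusted *p* from 0.864 to 0.891. Of the mice only those of Egr1cKO were left out here, and the 2 at the unadjusted level became 8 without male Egr1cKO replicate 1 and 0 without female Egr1cKO replicate 2 or male Egr1cKO replicate 2 or 3.

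Markers of other cell types were read in the same mice, since the lysosomal genes are not equally abundant in each type. The 5 astrocyte markers summed to 1367, 1729.6 and 1811 CPM in Egr1cKO (lowest, median and highest) and 1141, 1450.1 and 1651 CPM in the 18 other mice, with *Slc1a3* the most abundant. *Aqp4*, the water channel of astrocyte endfeet, rose in Egr1cKO against Egr1 fNes Cre- (log2FC 0.82, SE 0.11, adjusted *p* 0.00507 by edgeR), higher in 6 of 6 mice, and was the only called gene of the marker lists in the 8 comparisons by edgeR. That comparison does not hold Cre constant. In Egr1 wtNes Cre+ against Egr1 wtNes Cre- *Aqp4* gave 0.41 (SE 0.11, unadjusted *p* 0.00149, adjusted *p* 0.729), and in Egr1cKO against Egr1 wtNes Cre+ it gave 0.28 (SE 0.10, unadjusted *p* 0.0147, adjusted *p* 0.351), neither past the threshold. Against the 18 other mice it was at 0.58 (adjusted *p* 0.128, and 0.0289 to 0.448 over the alternatives). The 5 oligodendrocyte markers summed to 3054, 3998 and 4404 CPM in Egr1cKO and 3745, 4743 and 5753 CPM in the others, with *Mbp* the most abundant. The 5 microglial markers summed to 205, 209.6 and 239 CPM and 149.6, 193 and 218 CPM, with *Csf1r* the most abundant. Endothelial markers summed to 148, 163 and 166 CPM in Egr1cKO and 85.3, 140.3 and 191 CPM in the others, led by *Flt1*. Neuronal markers summed to 4969.8, 5208 and 5473 CPM and 4691, 5176 and 5535 CPM, led by *Snap25*. None of these markers was at 0 in all mice. The part of these cell types in the level of *Ids* was not tested.

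Choroid plexus markers varied most from mouse to mouse, summing to 30.0, 55.1 and 1129.5 CPM in Egr1cKO and 33.3, 47.5 and 2043 CPM in the others, with *Ttr* the most abundant outside Egr1 wtNes Cre-, where it was *Kl*. High values occurred in some mice of the 3 other genotypes, and in Egr1 wtNes Cre- mice the sum did not pass 44.7 CPM. Meningeal fibroblast markers summed to 36.0, 67.7 and 85.5 CPM in Egr1cKO and 17.7, 53.6 and 94.5 CPM in the others, led by *Dcn*, and blood markers to 29.2, 48.9 and 66.8 CPM and 32.3, 58.2 and 95.5 CPM, led by *Hbb-bs*. Of the lists of 5, those at an unadjusted *p* under 0.05 in Egr1cKO against the 18 other mice were 2 astrocyte markers (*Aqp4* and *Gja1*), 3 microglial (*Csf1r*, *Cx3cr1* and *P2ry12*), 2 endothelial (*Flt1* and *Pecam1*), 2 fibroblast (*Col1a1* and *Col1a2*) and 1 hippocampal excitatory (*Wfs1*), all higher. Lower were 4 oligodendrocyte markers (*Mbp*, *Mog*, *Mag* and *Mobp*) and 2 of blood (*Hbb-bs* and *Hbb-bt*). Neuronal and choroid plexus markers had 0, beside 15.1% of all genes at this level. The Egr1cKO mouse with the most choroid plexus RNA, male replicate 2, had the lowest *Ids* of its group, at 523 CPM. The highest choroid plexus sum of all mice, 2043 CPM, was in female Egr1 wtNes Cre+ replicate 1. That mouse had *Ids* at 499 CPM, above its genotype mean of 473 CPM. A relation between these levels was not tested.

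The genes most like *Ids* were sought by Pearson's r of log2(CPM + 1) across the 18 mice that are not Egr1cKO, among the 19741 other genes that passed the filter. They were *Kctd12b* (r 0.938), *Erbb4* (0.937), *Slc6a11* (0.933), *Map2* (0.931) and *Fam199x* (0.931). Of these *Erbb4* encodes a neuregulin receptor, *Slc6a11* a GABA transporter of astrocytes and *Map2* a protein of dendritic microtubules. Least like it were *Rbm17* (-0.933) and *Arl3* (-0.901). Across the 6 Egr1cKO mice r with *Ids* was 0.899 for *Slc6a11*, 0.714 for *Erbb4*, 0.672 for *Map2*, 0.150 for *Kctd12b* and 0.0381 for *Fam199x*. The 116 other lysosomal genes had a median r of -0.188 across the 18 mice, beside -0.0148 over all genes, and 42 of the 116 (36.2%) had an r above 0, beside 48.6% of all genes. The mice share genotype groups, sexes and library depths, so r is a description of these 18 libraries.

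Within 500 kb of *Ids* lie 9 annotated genes that have a row in the count table. Of these *1110012L19Rik*, *Tmem185a* and *Aff2* passed the filter. *1110012L19Rik* lies 20793 bases away and was at 5.22 ± 1.02 CPM in Egr1cKO and 6.60 ± 1.34 CPM in Egr1 fNes Cre- (SD, n = 6), a log2FC of -0.34 (SE 0.16, adjusted *p* 0.306). *Tmem185a*, 94669 bases away, was at 30.5 ± 2.72 and 34.3 ± 4.75 CPM, a log2FC of -0.16 (SE 0.093, adjusted *p* 0.380). *Aff2*, 475032 bases away, encodes a nuclear protein of a transcription elongation complex and was at 12.9 ± 2.04 and 8.71 ± 3.02 CPM, a log2FC of 0.56 (SE 0.19, adjusted *p* 0.250). None passed the threshold. In the interaction of the floxed allele with Cre *Aff2* gave 0.88 (SE 0.31, unadjusted *p* 0.00924, adjusted *p* 0.162) and passed only with no filter on low counts, with adjusted *p* from 0.000433 to 0.259 over the alternatives. No annotated gene shares exons with *Ids*, unlike *Idua* and *Ctsb*.

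Promoter windows from RefSeq (GRCm38.p6), 250 bases before to 50 after the start of a gene, matched 8 of the 10 members, the exceptions being *Ctsb* and *Galns*. They were searched on both strands for GCGNGGGCG, a motif bound by EGR proteins, and for CACGTG, the core of the element through which TFEB acts on lysosomal genes, with its longer form TCACGTGA, which contains it. The windows of *Ids* and the 7 others held no GCGNGGGCG, a motif found in 5.55% of all 32851 windows. CACGTG was found in the windows of *Lamp1* (4 matches), *Ctsd* (2) and *Gaa* (1), while 7.15% of all windows hold it. The windows of *Ids*, *Idua*, *Hexa*, *Neu1* and *Tfeb* held no CACGTG. TCACGTGA was found in the window of *Ctsd*, and 0.974% of all windows hold it. By gene, 26 of the 93 genes of the wider list with a window had CACGTG in at least 1 window (28.0%), beside 8.09% of all 27025 genes. A match is a run of letters and not a measured site. The window of *Ids* (chrX:70365036-70365335, minus strand) is shown beside those of *Ctsd* (chr7:142387778-142388077, minus strand), *Lamp1* (chr8:13158911-13159210, plus strand) and *Gaa* (chr11:119267713-119268012, plus strand), to set the gene that was higher in Egr1cKO beside members that carry the E-box, with CACGTG or TCACGTGA in capitals:
Ids: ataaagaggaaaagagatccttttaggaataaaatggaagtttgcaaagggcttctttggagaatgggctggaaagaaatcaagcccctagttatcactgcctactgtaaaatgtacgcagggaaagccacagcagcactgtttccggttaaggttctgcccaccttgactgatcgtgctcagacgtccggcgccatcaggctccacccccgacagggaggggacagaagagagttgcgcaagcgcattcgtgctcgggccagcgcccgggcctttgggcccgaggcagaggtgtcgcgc
Ctsd: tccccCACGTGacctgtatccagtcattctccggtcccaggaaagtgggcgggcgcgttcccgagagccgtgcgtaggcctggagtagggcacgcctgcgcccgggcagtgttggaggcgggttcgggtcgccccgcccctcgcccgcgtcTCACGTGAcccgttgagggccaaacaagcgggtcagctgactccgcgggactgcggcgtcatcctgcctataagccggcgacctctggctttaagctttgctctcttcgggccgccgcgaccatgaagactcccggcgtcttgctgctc
Lamp1: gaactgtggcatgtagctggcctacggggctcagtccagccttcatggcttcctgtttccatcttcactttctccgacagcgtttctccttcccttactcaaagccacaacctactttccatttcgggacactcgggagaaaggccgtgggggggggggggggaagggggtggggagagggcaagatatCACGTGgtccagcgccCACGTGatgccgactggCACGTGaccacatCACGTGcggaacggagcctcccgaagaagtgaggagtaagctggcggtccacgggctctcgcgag
Gaa: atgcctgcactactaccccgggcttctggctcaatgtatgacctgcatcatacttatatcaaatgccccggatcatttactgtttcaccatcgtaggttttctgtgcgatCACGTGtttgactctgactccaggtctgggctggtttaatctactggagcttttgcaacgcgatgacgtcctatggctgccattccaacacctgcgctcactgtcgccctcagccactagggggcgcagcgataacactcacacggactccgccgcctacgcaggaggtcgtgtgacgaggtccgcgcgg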

How the data were processed

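Hippocampal RNA of 24 mice was sequenced from non-stranded libraries. The authors deposited whole-number counts per gene, without normalization, for 36605 genes. The submitters' processing notes name GRCm38, Trim Galore 3.8.2 and STAR 2.7.9, and the versions in the paper's methods differ from these. The annotation used for counting is not given in the sources used here. Symbols, positions and exon lengths came from GENCODE M21, which matched 36493 genes.

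Groups came from the sample labels, which give each library a mouse number of its own. From the deposited counts, CPM with TMM factors and log2FC were computed in R 4.3.3 with edgeR 4.0.16 (quasi-likelihood F test, filterByExpr with a minimum count of 10, Benjamini-Hochberg adjustment over all genes tested). Standard errors were taken as |log2FC| over the root of F. A gene was called from a 1.2-fold change upward with *p* adjusted to 0.05 or less, and for the 2 interactions without a fold minimum. The interaction of floxP and Nestin-Cre was fitted with sex as a further term. Alternatives were DESeq2 1.42.0, its size factors, no filter on low counts, sex as a covariate, genotype as a covariate, blocks by replicate number, no fold minimum, a pseudocount of 0.1 for likeness and mice left out in turn (for the 2 interactions, those of Egr1cKO only). The tests were tested on simulated data.

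Named genes are the 10 members and *Egr1*, in each role of the wider list the gene of lowest *p* (none was called), the 5 genes most like and 2 least like *Ids*, and its neighbours within 500 kb. The members and lists were chosen with earlier results of these data known. Some genes that the rule takes are not reported here. *Mtor* within the floxed mice, *Sumf1*, *Sumf2* and the enzymes of heparan sulfate breakdown were named after their values were seen.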

Additional observations from a re-analysis of the deposited data

Results flagged for a closer look

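Values of the 10 members and *Egr1* were examined for a single mouse far from the other 5 of its genotype, in 44 groups of 6. Chance gives such a mouse in about 1 in 20 groups, or 2.2 of 44, and 2 were found. A male Egr1cKO mouse, replicate 3, had *Idua* at 23.5 CPM, above the 5 others of its genotype by 0.684 of the whole range. This is the library that stood apart from its group mates in the counts as a whole. Replicate 1 of the Egr1 wtNes Cre- males had *Tfeb* at 10.8 CPM, apart by 0.653 of the range. No cause was tested for either.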

How the results depend on the processing

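The 1353 alternative values of the 10 members, *Egr1* and the genes most and least like *Ids* kept their direction and, where tested, their side of the threshold, except that 57 log2FC near 0 changed sign by less than 1 SE. The log2FC of *Ids* ran over all settings from 0.24 to 0.30 against the 18 other mice, 0.27 to 0.35 against Egr1 fNes Cre- and 0.28 to 0.34 against Egr1 wtNes Cre+. Of 128 further fits, 126 called no gene of the wider list beside *Ids*. The exceptions were the interaction of floxP and Nestin-Cre with no filter, with 5 genes, and Egr1cKO against Egr1 wtNes Cre+ without single mice, from 0 to 1, where *Mtor* was called without male Egr1 wtNes Cre+ replicate 2. Other named genes crossed it too, among them *Aff2* in the interaction with no filter, *Aqp4* against the 18 other mice, and *Mbp*, *Mobp* and *Gja1* by DESeq2 against Egr1 fNes Cre-.

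Counts of called genes over the whole table moved more than those of the list. DESeq2 called 34 genes in Egr1cKO against 18 mice, 53 against Egr1 fNes Cre-, 29 against Egr1 wtNes Cre+, 1 for Egr1 fNes Cre- against Egr1 wtNes Cre-, 15 for Egr1 wtNes Cre+ against Egr1 wtNes Cre-, 5 for the change of the sex difference and 36 for the interaction with Cre. With no filter, in the same order, edgeR called 7, 9, 1, 4, 8, 146 and 1173. With sex as a covariate Egr1cKO against 18 mice gave 3. The cause was not tested.

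With single mice left out, called genes ran from 1 to 215 against 18 mice, 2 to 8 against Egr1 fNes Cre-, 1 to 255 against Egr1 wtNes Cre+, 0 to 111 for Egr1 wtNes Cre+ against Egr1 wtNes Cre- and 0 to 1 for the sex difference, and stayed at 0 for Egr1 fNes Cre- against Egr1 wtNes Cre- and at 1 for the interaction with Cre. For the interaction and the sex difference only the 6 Egr1cKO mice were left out in turn, and the effect of the 18 others on these is not known. Against 18 mice there were 215 without male Egr1cKO replicate 3, 9 without female Egr1 wtNes Cre+ replicate 1, 8 without male Egr1cKO replicate 2, 3 without male Egr1cKO replicate 1 and 2 without female Egr1 wtNes Cre+ replicate 2. Against Egr1 fNes Cre- there were 8 without male Egr1cKO replicate 2 and 5 without male Egr1 fNes Cre- replicate 1. Against Egr1 wtNes Cre+ there were 255 without male Egr1 wtNes Cre+ replicate 2 and 2 without male Egr1cKO replicate 2. For Egr1 wtNes Cre+ against Egr1 wtNes Cre- there were 111 without male Egr1 wtNes Cre+ replicate 2 and 2 without replicate 3.

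With the replicate number as a replicate block, 3 genes were called against 18 mice and 9 against Egr1 fNes Cre-, and no lysosomal gene beside *Ids*. Replicate numbers did not pair the mice: 7 of 36 pairs of the same sex and number had deviations with r above 0.1, with a mean r of -0.0132.

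For the 9 members beside *Ids*, the SE of the log2FC against the 18 other mice ran from 0.039 for *Lamp1* to 0.10 for *Galns*.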
